A study of Mus musculus with 12 samples.

Results

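Spp1, Gpnmb, Trem2, Mmp12, Apoe, Apoc1 and Cd68 are 7 genes known from lipid-laden macrophages, the foamy cells of the artery wall. They were followed here in RNA from mouse aortic endothelial cells. The rows of the table whose symbol is one of these names were taken, and all 7 were found among 10655 genes, each once. The members were selected on their levels by diet group, as seen in earlier results from the same table, so the levels and differences of the 7 genes below are a description and lend no support to one another. The 12 libraries were made with SMART-seq, which reads RNA over its full length, and formed 4 groups of 3. WD_WD stands for offspring on WD of WD mothers, CD_WD for offspring on WD of CD mothers, WD_CD for offspring on CD of WD mothers and CD_CD for offspring on CD of CD mothers. The labels do not spell out WD and CD; the series title speaks of a high-fat diet of the mothers. The first diet of a title was taken as the mother's, after the order in the series text, which also places the WD offspring on a renewed WD for 4 weeks. Genotype, sex, age, batch and any sorting are not among the labels, which do not say that replicates were separate animals, so p-values measure a spread that may be technical.

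Macrophages in an atherosclerotic artery take up lipoproteins, break them down in lysosomes and store or export the cholesterol. Trem2 is a surface receptor for lipids that signals through the adaptor Tyrobp and is needed for this lipid-handling state. Gpnmb and Cd68 are membrane glycoproteins of the lysosomal and late endosomal system, Apoe and Apoc1 are apolipoproteins that coat lipid particles, Spp1 (osteopontin) is a secreted ligand of integrins and of Cd44, and Mmp12 is a secreted protease that cuts elastin.

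Reads in the table numbered between 4074413 (WD_WD replicate 3) and 19670570 (CD_CD replicate 1) per library. Values are normalised counts, that is, reads divided by a size factor per library. The endothelial label was checked with 19 endothelial markers, all of which had a row and 1 of which was at 0 reads in WD_WD replicate 2. Their mean level, as log2(normalised count + 1), was 8.49 to 9.72 in WD_WD, 6.57 to 10.40 in CD_WD, 11.02 to 11.53 in WD_CD and 11.65 to 11.70 in CD_CD. Markers of fibroblasts had means between 7.77 and 12.59 over all libraries, above the endothelial mean in some libraries and below it in others. In WD_WD the means of macrophage (11.95 to 12.30) and neutrophil markers (10.86 to 13.71) lay above the endothelial ones. The same held within each CD_WD library, with macrophage means of 9.51 to 11.97 and neutrophil means of 11.30 to 13.59. CD_WD replicate 1 stood apart, with the lowest endothelial mean and a B cell mean of 14.87, against at most 11.38 in any other library. WD_CD replicate 3 had the most genes without a read, 463. In bulk RNA of this kind, fewer cells of a type and less RNA per cell cannot be told apart.

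Spp1, the secreted ligand (chr5:104435118-104441050 in GRCm38, GENCODE vM21), had 122261, 539967 and 223785 normalised counts in WD_WD, against 1868.5, 67728 and 79756 in CD_WD. In the CD offspring it had 19180.3, 109.6 and 18403 in WD_CD, against 852, 17059 and 151 in CD_CD. All 3 WD_WD libraries lay above every library of the other groups, while each of the other groups held both high and low libraries. WD_CD replicates 1 and 3 and CD_CD replicate 2 carried similar amounts, and the other 3 CD libraries carried 852 or fewer. Exons of Spp1 overlap those of the predicted gene Gm42793, which is not a gene of the table.

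Gpnmb, the lysosomal glycoprotein (chr6:49036546-49070929), had 85346.5, 91343 and 49275 normalised counts in WD_WD, against 388, 13217.5 and 42050.5 in CD_WD. It had 10745.5, 224 and 4401 in WD_CD, against 133, 4931 and 245 in CD_CD. WD_WD again lay above all other libraries, and the 3 high CD libraries were the same as for Spp1.

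Trem2, the lipid receptor (chr17:48346401-48354147), had 13963, 8844 and 8786 normalised counts in WD_WD, against 98.9, 2084 and 3720.3 in CD_WD. It had 1409.7, 2.79 and 349 in WD_CD, against 1.73, 294 and 41.0 in CD_CD. The lowest of these values rest on 7 reads in WD_CD replicate 2 and 5 reads in CD_CD replicate 1. WD_WD was above all other libraries, and the same 3 CD libraries as for Spp1 and Gpnmb were the high ones.

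Mmp12, the elastin-cutting protease (chr9:7344381-7369499), had 10645, 20407 and 6786.5 normalised counts in WD_WD, against 78.6, 2603 and 7874 in CD_WD. It had 4349.5, 0.398 and 845 in WD_CD, against 70.8, 1245 and 20.7 in CD_CD. The value in WD_CD replicate 2 is 1 read of 17222566. Here WD_WD overlapped CD_WD, since CD_WD replicate 3 lay above WD_WD replicate 3. Exons of Mmp12 overlap those of Mmp1b on the other strand; how strand was treated in counting is not given in the sources used here.

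**Figure D1:**
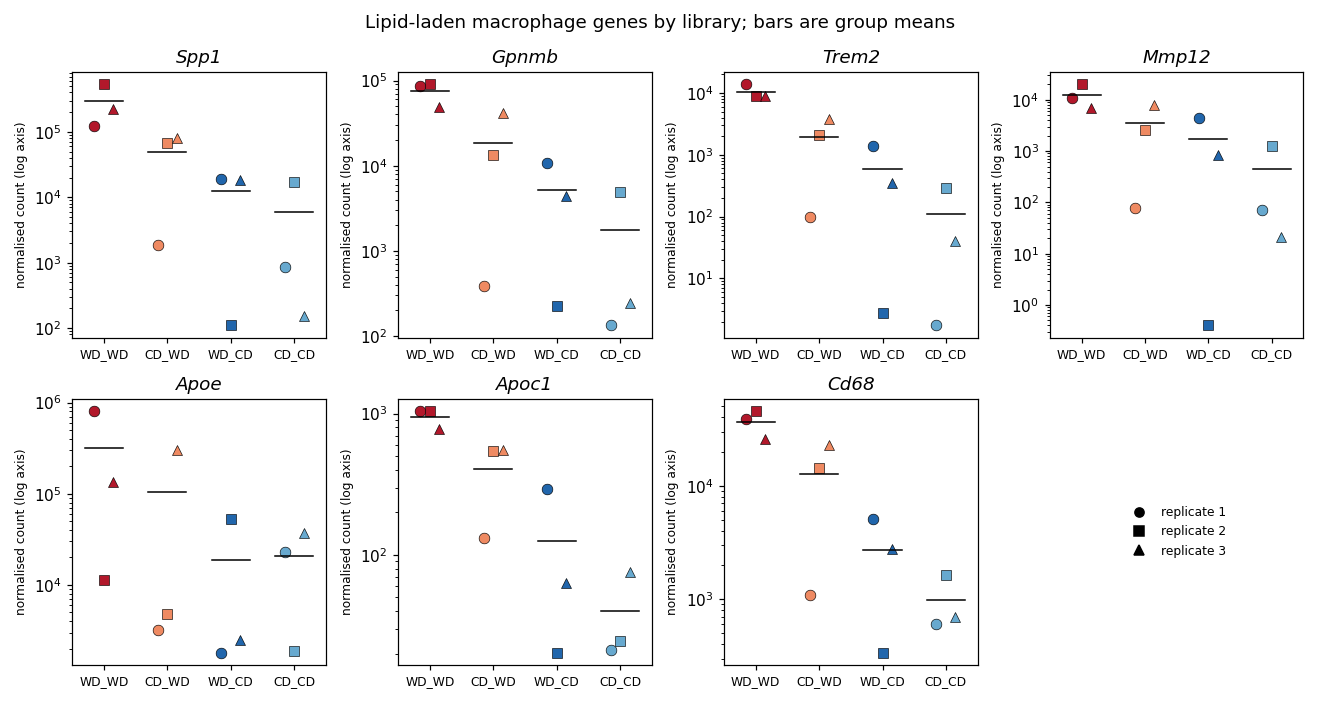
Normalised count (log axis) of each of the 7 genes in each library, by group on the x axis (mother's diet, then offspring's diet); symbols are replicates and bars are group means. Spp1, Gpnmb, Trem2, Apoc1 and Cd68 lie higher in all 3 WD_WD libraries than in any other library, while Apoe is scattered in every group.

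Cd68, which marks macrophages in general (chr11:69664213-69666153), had 38525, 45454.5 and 26022 normalised counts in WD_WD, against 1085, 14418.5 and 22903 in CD_WD. It had 5069, 338 and 2772 in WD_CD, against 605, 1627 and 703 in CD_CD. WD_WD lay above every other library. The CD_CD libraries were within 2.69-fold of one another, although their Spp1 spanned 113-fold.

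Apoc1, the smaller apolipoprotein, had 1040.3, 1040.3 and 776 normalised counts in WD_WD, against 132, 539.8 and 553 in CD_WD. It had 292, 20.3 and 62.9 in WD_CD, against 21.2, 24.5 and 75.5 in CD_CD. No other member had all 3 CD_WD libraries, as it did, above the 3 CD_CD libraries. In CD_CD replicate 2, where Spp1 and Gpnmb were high, Apoc1 was low.

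Apoe, the main apolipoprotein of macrophage cholesterol export, did not follow the other 6 genes. It had 803268, 11184 and 133580 normalised counts in WD_WD, against 3232, 4848 and 303332 in CD_WD. It had 1803, 52603 and 2458 in WD_CD, against 22941, 1889 and 37189.6 in CD_CD. Within a group its highest library was 71.8 times its lowest in WD_WD, 93.8 times in CD_WD, 29.2 times in WD_CD and 19.7 times in CD_CD. In the CD offspring the order was turned round: the 3 libraries with the most Spp1, Gpnmb, Trem2 and Mmp12 were the 3 with the least Apoe. In the WD offspring WD_WD replicate 1 and CD_WD replicate 3 were high for both, whereas WD_WD replicate 2 had the most Spp1 of all libraries and an Apoe level below 6 others. This pattern was picked out after the values were seen.

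**Figure D2:**
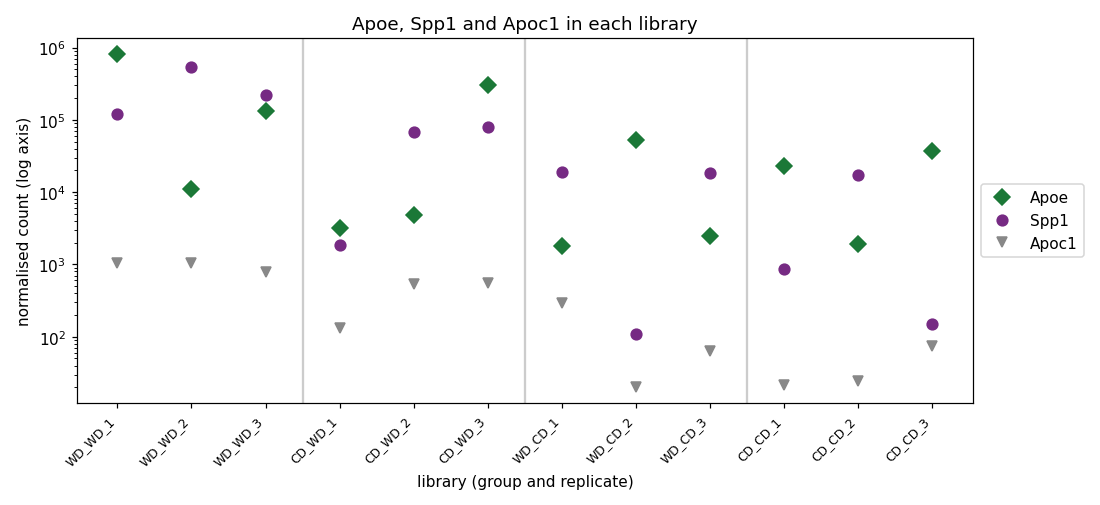
Normalised count (log axis) of Apoe, Spp1 and Apoc1 in each of the 12 libraries, named by group and replicate on the x axis. In the CD libraries Apoe is high where Spp1 is low, and Apoc1 follows neither of them throughout.

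Apoe took up much of some libraries. Its share of all reads was 3.92% in WD_WD replicate 1 (95% Wilson interval 3.91 to 3.94), where it ranked 5 of 10655 genes, and 0.0591% in WD_WD replicate 2 (0.0577 to 0.0604), where it ranked 179. In WD_CD replicate 2 it ranked 4, with 0.767% of reads (0.762 to 0.771), and in WD_CD replicate 1 it ranked 653, with 0.0252% (0.0244 to 0.0259). These intervals cover counting error only, and they are far narrower than the differences between replicates. The 7 genes together held 2.78% to 5.25% of reads in the WD_WD libraries. The same sum was 0.0241%, 0.701% and 2.97% in CD_WD, 0.598%, 0.777% and 0.411% in WD_CD, and 0.361%, 0.385% and 0.558% in CD_CD. In the low-Spp1 CD libraries most of that sum was Apoe.

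Apoe and Apoc1 are neighbours on chromosome 7 of GRCm38, where GENCODE vM21 puts Apoe at chr7:19696109-19699188 and Apoc1 at chr7:19689481-19692660, both on the minus strand and 3448 bases apart. The ratio of Apoe to Apoc1 normalised counts was 772, 10.8 and 172 in WD_WD, against 24.5, 8.98 and 548 in CD_WD. It was 6.18, 2589 and 39.1 in WD_CD, against 1084, 77.0 and 493 in CD_CD. No group had a steady ratio, and the groups overlapped. Tomm40, the mitochondrial import gene next to Apoe, varied less: it had 737, 951 and 317 in WD_WD, 981, 519 and 708 in CD_WD, 644, 348 and 639 in WD_CD, and 473, 453 and 510.03 in CD_CD. Of the 6 genes of this neighbourhood that were measured, 1 rose in CD_WD against CD_CD, beside 9.46% of all genes. It was Bcl3, which encodes a cofactor of NF-kappaB proteins. In WD_WD against WD_CD 0 of the 6 passed, beside 14.2% of all genes that rose and 10.2% that fell.

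The promoters of the other members were read from RefSeq (GRCm38.p6), as 250 bases before to 50 after each listed transcription start. Of the 7 genes, 6 had an entry; Apoc1 had none. The windows were searched on both strands for TGANTCA (the AP-1 site), CACGTG (an E-box of the Mitf and Tfeb family), TCATGTG (the core of the M-box) and GAGGAA (the core bound by PU.1, the product of Spi1). The TGANTCA letters occurred in 4 of 6 member windows, against 5.31% of 10480 windows of genes in the table. The 4 windows are shown because they share these letters, with every searched match in capitals, those on the other strand included; no matches overlapped. Gpnmb is at chr6:49036268-49036567, Trem2 at chr17:48346151-48346450 and Mmp12 at chr9:7347124-7347423, all on the plus strand, and Cd68 is at chr11:69666121-69666420 on the minus strand.
Gpnmb: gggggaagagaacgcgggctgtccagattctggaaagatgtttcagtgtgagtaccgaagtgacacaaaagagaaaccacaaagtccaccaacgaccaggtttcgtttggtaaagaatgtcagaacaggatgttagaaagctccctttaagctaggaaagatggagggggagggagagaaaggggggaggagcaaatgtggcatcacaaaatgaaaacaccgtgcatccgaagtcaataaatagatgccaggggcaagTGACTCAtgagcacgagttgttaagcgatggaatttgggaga
Trem2: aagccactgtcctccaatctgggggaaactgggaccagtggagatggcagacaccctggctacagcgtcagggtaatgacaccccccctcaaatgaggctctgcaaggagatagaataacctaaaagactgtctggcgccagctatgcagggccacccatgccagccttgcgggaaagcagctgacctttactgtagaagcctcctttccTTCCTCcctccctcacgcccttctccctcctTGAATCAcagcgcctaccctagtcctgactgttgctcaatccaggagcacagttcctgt
Mmp12: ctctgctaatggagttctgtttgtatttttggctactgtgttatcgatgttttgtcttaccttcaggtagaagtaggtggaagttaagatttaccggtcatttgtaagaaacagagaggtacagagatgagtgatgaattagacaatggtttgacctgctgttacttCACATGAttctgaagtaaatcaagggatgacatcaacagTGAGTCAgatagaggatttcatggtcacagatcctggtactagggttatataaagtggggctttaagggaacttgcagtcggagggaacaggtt
Cd68: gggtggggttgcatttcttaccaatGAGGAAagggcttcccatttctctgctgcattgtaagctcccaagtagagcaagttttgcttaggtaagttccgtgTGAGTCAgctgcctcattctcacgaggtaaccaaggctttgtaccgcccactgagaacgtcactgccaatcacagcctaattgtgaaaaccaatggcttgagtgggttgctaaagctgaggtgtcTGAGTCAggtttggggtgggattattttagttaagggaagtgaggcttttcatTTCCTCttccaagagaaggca
Counted from the start as position 0, TGANTCA began at position 8 in Gpnmb, -9 in Trem2, -44 in Mmp12, and -149 and -24 in Cd68. As printed, the match is TGACTCA in Gpnmb and TGAGTCA in Mmp12 and Cd68. In Trem2 it is TGAATCA, which is neither form of the AP-1 site. RefSeq lists 2 windows for Spp1, 2 for Mmp12 and 3 for Apoe. The one whose start lies nearest to that of GENCODE's principal transcript was used. For Gpnmb, Mmp12 and Apoe this transcript starts inside the gene bounds given above, at chr6:49036615, chr9:7347374 and chr7:19699052. The start in the window used was 136 bases from that transcript's start for Apoe, 97 for Gpnmb, 17 for Cd68 and 7 for Spp1. It was at the same base for Trem2 and Mmp12. The TCATGTG letters were in 1 window, Mmp12 (2.10% of windows in the table), GAGGAA in 4, those of Spp1, Trem2, Apoe and Cd68 (27.4%), and CACGTG in 0 (10.02%). Neither Spp1 nor Apoe had the TGANTCA letters in any of its listed windows, nor had the other window of Mmp12. A match is a description of the letters and not a bound site.

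Across the offspring's diet, all 7 genes were higher on average in WD offspring. Among the offspring of WD mothers (WD_WD against WD_CD) the log2 fold change was 6.18 ± 2.09 for Spp1, 5.05 ± 1.76 for Gpnmb, 6.38 ± 2.05 for Trem2 and 6.04 ± 2.51 for Mmp12 (fitted difference ± SE, n = 3 libraries each, on log2(normalised count + 1)). It was 4.41 ± 1.08 for Cd68, 3.68 ± 0.89 for Apoc1 and 4.11 ± 1.95 for Apoe. All but Apoe were higher in every WD_WD library than in every WD_CD library, 6 of 7, beside 21.9% of all genes.

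Among the offspring of CD mothers (CD_WD against CD_CD) the log2 fold changes were 4.05 ± 2.09 for Spp1, 3.46 ± 1.76 for Gpnmb, 4.83 ± 2.05 for Trem2 and 3.24 ± 2.51 for Mmp12. They were 3.004 ± 1.08 for Cd68, 3.28 ± 0.89 for Apoc1 and 0.52 ± 1.95 for Apoe. The groups did not overlap for Apoc1 alone, 1 of 7, beside 21.9% of all genes. CD_WD replicate 1, the library of low endothelial and high B cell markers, was the lowest of its group for all 7 genes.

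With a Benjamini-Hochberg adjusted p under 0.05 from limma over all 10655 genes, 4 of 7 passed in WD_WD against WD_CD (Spp1, Trem2, Apoc1 and Cd68), where 14.2% of all genes rose. In CD_WD against CD_CD, 1 of 7 passed (Apoc1), where 9.46% of all genes rose. The members were chosen with these contrasts known, so nothing is read from these counts. The median log2 fold change of the 7 was 5.05 in WD_WD against WD_CD, beside 0.01 over all genes, and 3.28 in CD_WD against CD_CD, beside -0.02. Without CD_WD replicate 1 and WD_CD replicate 3, 5 of the 7 passed in WD_WD against WD_CD, where 14.9% of all genes rose and 10.6% fell, and 3 in CD_WD against CD_CD, where 8.91% rose and 3.70% fell. When reads were scaled to the library total instead, the median of all genes moved to -1.36 and -1.45 in these comparisons and 0 of the 7 passed in either. With that scaling 4.14% of all genes rose and 40.2% fell in WD_WD against WD_CD, and 2.76% rose and 38.5% fell in CD_WD against CD_CD. Apoe in CD_WD against CD_CD then turned to -0.92.

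For the mother's diet, the comparison the authors deposited as well, no member passed. In WD offspring (WD_WD against CD_WD) the log2 fold changes were 3.505 ± 2.09 for Spp1, 3.60 ± 1.76 for Gpnmb, 3.48 ± 2.05 for Trem2, 3.27 ± 2.51 for Mmp12, 2.66 ± 1.95 for Apoe, 1.47 ± 0.89 for Apoc1 and 2.33 ± 1.08 for Cd68. All WD_WD libraries lay above all CD_WD libraries for Spp1, Gpnmb, Trem2, Apoc1 and Cd68, 5 of 7, beside 5.86% of all genes. For Gpnmb and Cd68 the gap was narrow: the lowest WD_WD libraries had 49275 and 26022 normalised counts and the highest CD_WD libraries 42050.5 and 22903.

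In CD offspring (WD_CD against CD_CD) the log2 fold changes were 1.38 ± 2.09 for Spp1, 2.01 ± 1.76 for Gpnmb, 1.93 ± 2.05 for Trem2 and 0.47 ± 2.51 for Mmp12. They were -0.93 ± 1.95 for Apoe, 1.07 ± 0.89 for Apoc1 and 0.93 ± 1.08 for Cd68. The groups overlapped for all 7 genes, so that 0 of 7 stood above, beside 4.00% of all genes. By limma 0% of all genes passed in either comparison of the mother's diet, with 276 genes in CD and 628 in WD offspring at an unadjusted p under 0.05, and 0 of the 7 among them. edgeR called 0 genes in both, and DESeq2 called 9 and 14, with 0 of the 7. The interaction, the effect of the mother's diet in WD offspring minus that in CD offspring, was between 0.40 ± 1.26 for Apoc1 and 3.59 ± 2.76 for Apoe, and 0 of 7 passed by limma, edgeR or DESeq2, where limma called 0% of all genes (342 at an unadjusted p under 0.05) and DESeq2 10 genes. In the authors' deposited table the log2 fold changes for the mother's diet were 1.06 for Spp1, 2.39 for Trem2 and -0.13 for Apoe in CD offspring, and 2.57, 2.42 and 1.61 in WD offspring. For Mmp12 in CD offspring that table gives 1.96, where limma here gave 0.47, and for Apoc1 1.63 with an unadjusted p of 0.0363, the one unadjusted p under 0.05 that it holds for the 7. Its lowest adjusted p among the 7 was 0.638, for Cd68 in WD offspring.

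Within groups the members varied more than most genes. The pooled SD of log2 levels was 3.85 for Mmp12, 3.19 for Spp1, 3.14 for Trem2, 2.97 for Apoe and 2.69 for Gpnmb. At least 98.86% of all genes had a smaller one than each of these 5. Cd68 (1.63) and Apoc1 (1.23) varied less, with 84.0% and 72.2% of genes below them. WD_WD was the tightest group for 6 of the 7, all but Apoe. For Trem2, Gpnmb, Cd68 and Apoc1 its highest library was at most 1.85 times its lowest.

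The members were also set against 19 macrophage genes that are not members (among them Csf1r, Adgre1, Lyz2 and C1qa), by subtracting the mean log2 level of the list in each library. That mean was 11.95 to 12.30 in WD_WD, 9.51 to 11.97 in CD_WD, 8.37 to 10.86 in WD_CD and 9.15 to 9.31 in CD_CD, and no gene of the list was at 0 in any library. Spp1 stood 4.91 to 6.74 log2 units above this mean in WD_WD, against 1.36 to 4.32 in CD_WD. It lay at -1.58 to 4.74 in WD_CD, against -1.91 to 4.82 in CD_CD. The 3 CD_CD libraries thus had nearly the same macrophage mean and Spp1 levels of 852, 17059 and 151. Cd68 stood 2.72 to 3.24 above the macrophage mean in WD_WD, 0.58 to 2.52 in CD_WD, 0.04 to 2.01 in WD_CD and -0.07 to 1.43 in CD_CD. Trem2 stood above it in the 3 WD_WD libraries, by 0.81 to 1.78, and below it in every library of the other groups. Apoe did not go with the list in the CD offspring: it was lowest, 1803 normalised counts, in WD_CD replicate 1, where the macrophage mean was 10.86, the highest of the 6 CD libraries. The part of macrophage content in the members' levels was not tested.

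**Figure D3:**
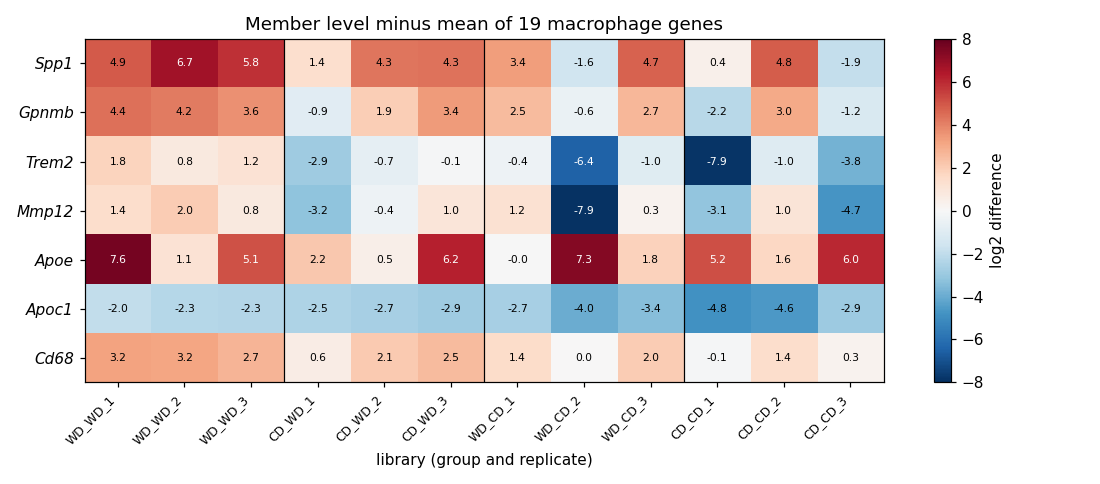
Log2 level of each member minus the mean log2 level of 19 macrophage genes (colour and printed number), with the 7 genes as rows and the 12 libraries as columns. Spp1, Gpnmb, Trem2 and Mmp12 are above zero in WD_WD replicates 1 to 3, and the CD libraries split into high and low ones that Apoe shows in reverse.

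Other cell types moved with the same diets. The counts of every list below stand beside 14.2% of all genes that rose and 10.2% that fell in WD_WD against WD_CD, and 9.46% and 5.55% in CD_WD against CD_CD. Of the macrophage list, 11 of 19 rose in WD_WD against WD_CD and 6 of 19 in CD_WD against CD_CD, and 0 fell, with medians of 2.48 and 1.89 (log2 fold change). With reads scaled to the library total, 4 and 3 rose and 0 and 1 fell. With that scaling 4.14% and 2.76% of all genes rose, and 40.2% and 38.5% fell. Lyz2, the macrophage lysozyme, rose in both, by 4.85 ± 1.04 and 3.60 ± 1.04 (log2, limma). Of 9 resident macrophage markers 0 rose; Lyve1 and Cd163 fell in WD_WD against WD_CD, and the list mean was 5.73 to 9.56 in WD_WD, 6.46 to 10.30 in CD_WD, 8.84 to 10.10 in WD_CD and 8.79 to 10.33 in CD_CD. Of these 9 markers, 2 were at 0 reads in WD_WD replicate 2. Of 19 endothelial markers 7 and 9 fell (medians -2.29 and -2.80), beside 10.2% and 5.55% of all genes that fell, among them Pecam1 and Cdh5, the adhesion molecules of endothelial junctions; the log2 fold change of Cdh5 was -4.11 and -3.20. Of 10 smooth muscle markers 2 and 8 fell, and of 9 fibroblast markers 4 and 1. Their means were 8.39 to 9.08 (smooth muscle) and 8.15 to 10.31 (fibroblast) in WD_WD, 5.43 to 8.83 and 7.77 to 12.48 in CD_WD, 9.39 to 11.26 and 10.98 to 12.59 in WD_CD, and 10.92 to 11.91 and 11.01 to 12.10 in CD_CD.

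Neutrophil markers rose with WD, 4 of 4 and 3 of 4, with list means of 10.86 to 13.71 in WD_WD, 11.30 to 13.59 in CD_WD, 3.06 to 7.45 in WD_CD and 3.81 to 5.45 in CD_CD. T and NK cell markers rose in 4 and 5 of 11, with means of 8.95 to 10.72 in WD_WD, 8.22 to 11.83 in CD_WD, 5.65 to 8.01 in WD_CD and 4.46 to 7.52 in CD_CD. B cell markers rose in 0 and 3 of 4, with means of 9.74 to 11.36 in WD_WD, 9.53 to 14.87 in CD_WD, 5.40 to 8.97 in WD_CD and 3.81 to 9.25 in CD_CD. Dendritic cell markers rose in 1 and 2 of 6, osteoclast markers in 0 and 1 of the 3 measured, and adipocyte markers in 0 of 4 in both. In each list the first count is for WD_WD against WD_CD and the second for CD_WD against CD_CD. Single markers were at 0 reads for smooth muscle in CD_WD replicate 1, for B cells in WD_CD replicate 3 and CD_CD replicate 2, for neutrophils in CD_CD replicate 2, and for adipocytes in CD_WD replicate 1, WD_CD replicate 3 and CD_CD replicate 1. Of the dendritic cell markers, 2 were at 0 in WD_CD replicate 2 and 2 in CD_CD replicate 1. The part of these cell types in the members' levels was not tested.

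**Figure D4:**
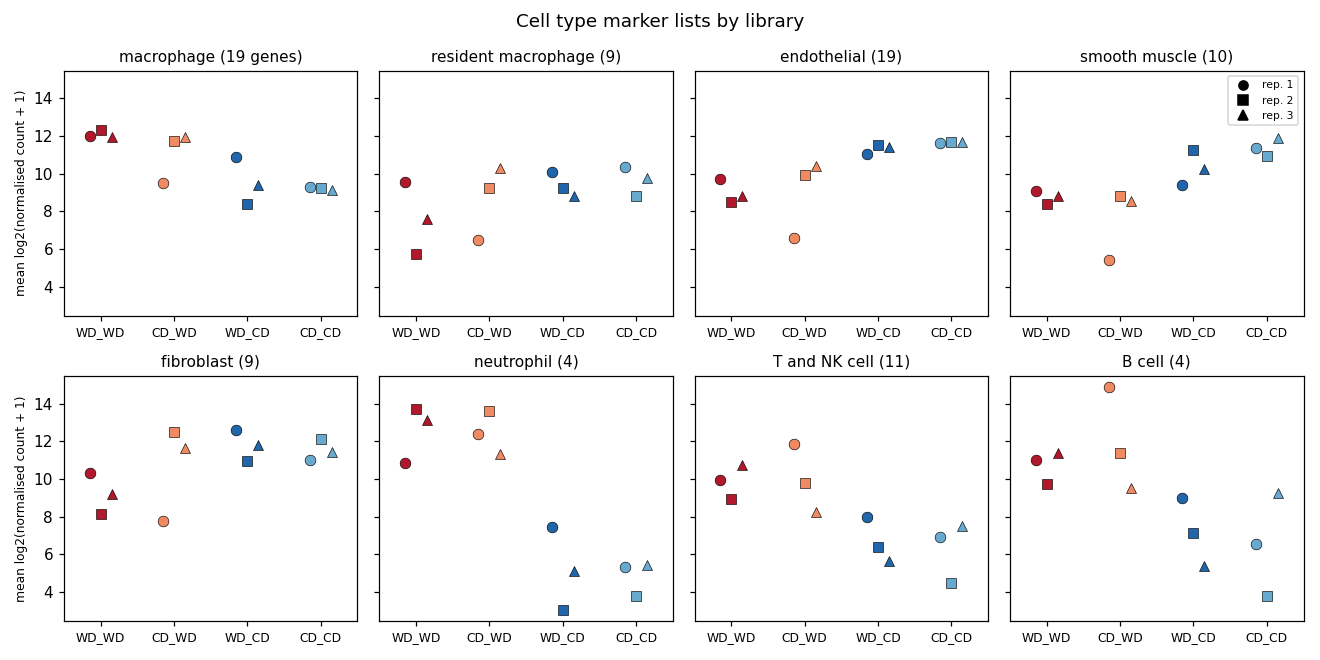
Mean log2(normalised count + 1) of 8 lists of cell type markers in each library, by group on the x axis; symbols are replicates. Macrophage, neutrophil, T and NK cell lists are mostly higher in WD offspring, endothelial and smooth muscle lists are lower, and CD_WD replicate 1 stands out with a B cell mean of 14.87.

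Other genes of lipid-laden macrophages were counted over a list of 30, all with a row. In WD_WD against WD_CD 16 rose and 0 fell, and in CD_WD against CD_CD 9 rose and 1 fell. The median log2 fold change of the list was 2.74 and 1.64, against 0.01 and -0.02 over all genes. Without CD_WD replicate 1 and WD_CD replicate 3 the counts that rose were 20 and 17, beside 14.9% and 8.91% of all genes. With reads scaled to the library total they were 7 and 2, beside 4.14% and 2.76% of all genes. None passed limma's threshold for the mother's diet, as no gene did.

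The genes that rose code for lipid-binding and lysosomal proteins, among others. Fabp5, a carrier of fatty acids, had 113694, 112250 and 84435 normalised counts in WD_WD, against 2233, 406 and 1417 in WD_CD, and rose by 6.56 ± 0.81 (log2, limma adjusted p = 0.000415). It rose by 3.91 ± 0.81 in CD_WD against CD_CD (adjusted p = 0.00735). Lgals3 (galectin-3) rose by 5.88 ± 1.26 and 4.99 ± 1.26. Plin2, which coats lipid droplets, rose by 3.47 ± 0.85 in WD_WD against WD_CD, and so did Cd63 by 3.37 ± 0.70, the protease Ctsd by 3.23 ± 0.91 and the cholesterol exporter Abcg1 by 1.74 ± 0.51. In CD_WD against CD_CD these 4 had differences of 2.11 ± 0.85, 1.48 ± 0.70, 1.33 ± 0.91 and 1.43 ± 0.51 and did not pass. Abca1, the other cholesterol exporter, differed by 0.44 ± 0.40 and -0.13 ± 0.40, the lipase Lpl by 1.84 ± 0.90 and -0.34 ± 0.90, and Cd9 by 0.60 ± 0.52 and -0.19 ± 0.52. None of these 3 passed. Cd36, a fatty acid and lipoprotein receptor that endothelial cells also carry, fell by 1.93 in CD_WD against CD_CD and differed by -0.77 ± 0.57 in WD_WD against WD_CD.

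**Figure D5:**
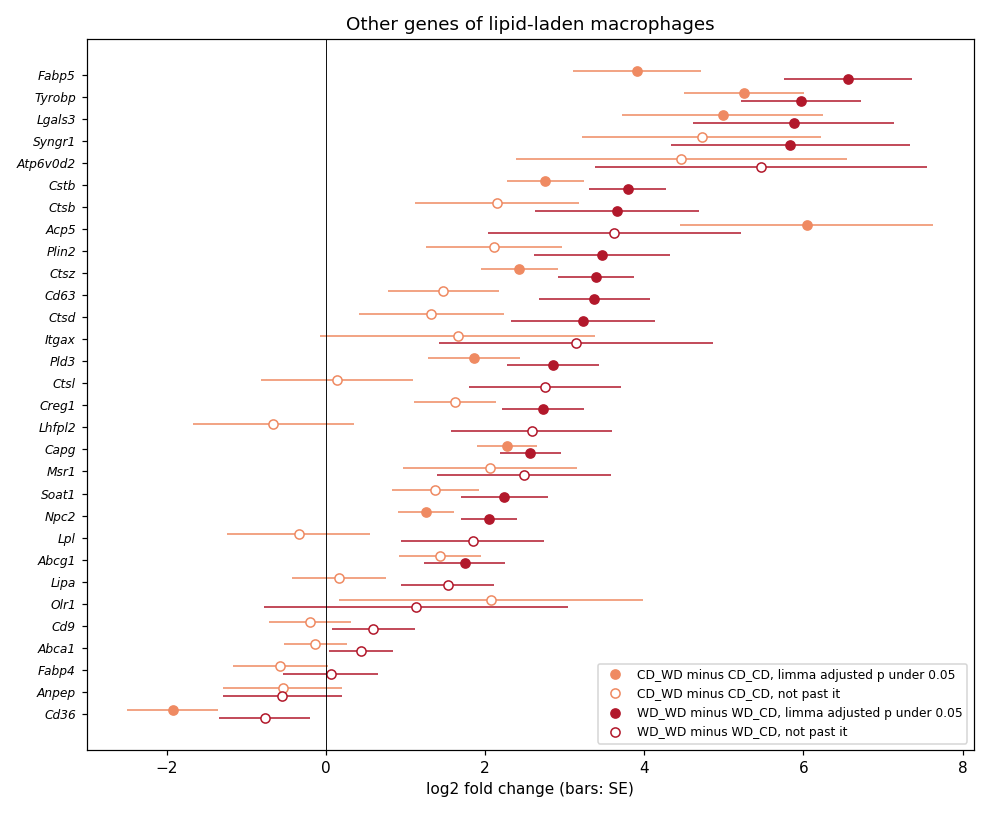
Log2 fold change (x axis, bars are SE) of 30 other genes of lipid-laden macrophages for WD_WD minus WD_CD (dark) and CD_WD minus CD_CD (light); filled points passed a limma adjusted p of 0.05. Of the 30 genes 16 and 9 rose, and Cd36 is the one that fell.

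For the signalling of Trem2, 6 of 11 measured genes rose in WD_WD against WD_CD and 5 in CD_WD against CD_CD, and the sheddase Adam10 fell in both, with medians of 1.88 and 2.59. Tyrobp is also in the list of 30. Tyrobp, the adaptor of Trem2, had 88902, 83292 and 54399 normalised counts in WD_WD, 19309, 43427 and 41053 in CD_WD, 3566, 239.9 and 1919 in WD_CD, and 833, 893 and 822 in CD_CD. It rose by 5.97 ± 0.75 and 5.26 ± 0.75, with no overlap between WD and CD offspring, and in CD_CD it was even where Trem2 ranged between 1.73 and 294. The related adaptor Hcst rose by 4.84 ± 0.93 and 5.38 ± 0.93, and the kinase Syk by 2.35 ± 0.69 and 2.59 ± 0.69. In CD_WD, Hcst had 7847, 1268 and 1001 normalised counts and Syk had 1032, 521 and 229. They were thus highest in replicate 1, the library of high B cell markers, where Trem2 was the lowest of its group at 98.9.

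Of 9 receptors of Spp1, Cd44 rose, by 2.203 ± 0.52 and 2.15 ± 0.52, and 3 integrin genes fell in both comparisons, Itgb1, Itga8 and Itga9 (list medians -1.06 and -1.48). Itgav, which pairs with beta integrins to bind Spp1, differed by -1.06 ± 0.46 and -0.68 ± 0.46 and did not pass. Of 12 measured genes around Mmp12, its substrate gene Eln (elastin) fell (log2 fold change -3.53 and -5.29), and so did Timp3, an inhibitor (-3.96 and -3.08). The inhibitor genes Timp1 (1.02 ± 1.05 and 0.38 ± 1.05) and Timp2 (-0.29 ± 0.69 and -0.89 ± 0.69) did not pass, nor did Mmp9 (1.44 ± 0.71 and 1.16 ± 0.71) or Mmp14 (1.29 ± 0.75 and -0.37 ± 0.75). Plaur, the receptor of urokinase, rose by 2.72 ± 0.42 and 3.13 ± 0.42. In all, 3 of these 12 rose and 3 fell in WD_WD against WD_CD, and 1 rose and 3 fell in CD_WD against CD_CD, with medians of 0.36 and -0.33. Eln and Itga8 are also genes of smooth muscle. Of 10 smooth muscle markers, 2 fell in WD_WD against WD_CD and 8 in CD_WD against CD_CD. A link between these falls was not tested.

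Of 20 lysosomal genes that are not in the list above, 6 and 3 rose and 0 fell, with medians of 1.11 and 0.40. Ctss, a macrophage cathepsin, rose by 4.86 ± 1.00 and 4.52 ± 1.00, and Gla, a lysosomal galactosidase of glycolipids, by 4.02 ± 0.66 and 3.24 ± 0.66. Lamp1, a membrane protein of lysosomes in all cells, differed by 0.46 ± 0.49 and -0.20 ± 0.49 and did not pass. Lrp1, a receptor of Apoe, differed by -0.13 ± 0.74 and -1.03 ± 0.74 and did not pass.

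Of 15 measured transcription factors known to act on such genes, 3 rose in each comparison and 1 fell, Nr1h2 (LXR beta), in WD_WD against WD_CD (medians 0.97 and 0.69). Of all genes 14.2% and 9.46% rose, and 10.2% fell in WD_WD against WD_CD. Spi1, which encodes PU.1, rose by 3.56 ± 0.51 and 3.54 ± 0.51, and Cebpb by 2.67 ± 0.47 and 3.13 ± 0.47. Mitf (0.25 ± 0.87 and -1.46 ± 0.87) and Tfeb (-1.21 ± 0.71 and 0.52 ± 0.71), factors of lysosomal genes, did not pass, and neither did Nr1h3 (LXR alpha), which drives Apoe in macrophages (1.45 ± 0.66 and 0.69 ± 0.66). With reads scaled to the library total, fewer genes of these lists passed upward in both comparisons. Of all genes, 4.14% rose and 40.2% fell with that scaling in WD_WD against WD_CD. In CD_WD against CD_CD 2.76% rose and 38.5% fell. The counts up and down were then 2 and 2 for Trem2 signalling in WD_WD against WD_CD and 2 and 3 in CD_WD against CD_CD, 0 and 6 in both for the Spp1 receptors, 2 and 1 against 1 and 5 for the lysosomal genes, and 1 and 3 against 2 and 5 for the transcription factors.

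Likeness of profile was measured as the mean absolute difference between log2 levels centred over the 12 libraries, so that a smaller value means a closer match. The nearest genes to Cd68 were Ms4a7 (0.35), Lyz2 (0.35) and Ctsb (0.49). Gpnmb was nearest to Syngr1 (0.73), Lgals3 (0.84) and Ms4a7 (0.87), and Trem2 to Syngr1 (0.58), Cd5l (0.67) and Gpnmb (0.92). Spp1 was nearest to F7 (0.77), Mmp12 (0.88) and Gpnmb (1.05), and Mmp12 to Spp1 (0.88), Gpnmb (0.98) and Cd5l (1.06). Thus Spp1, Gpnmb, Trem2 and Mmp12 each had another of the 4 among their 3 nearest, except Gpnmb. Apoc1 was nearest to Slamf9 (0.50), Csf2ra (0.50) and Ifi30 (0.52). Apoe had no close match: its nearest gene, Cda, was at 1.75, and the other 6 members were 2.59 (Apoc1) to 3.89 (Spp1) away from it. For the mean of the 7 members, the nearest 10 genes began with Ms4a7 (0.51), Ctss (0.59) and Lilr4b (0.61).

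Levels of different members were compared per kilobase of exon. In WD_WD the mean was 179210 ± 132192 normalised counts per kb for Spp1 and 147807 ± 199435 for Apoe (SD, n = 3), followed by 29170.2 ± 7835 for Cd68, 11563 ± 3493 for Gpnmb, 2129 ± 601 for Trem2, 1743 ± 970.1 for Mmp12 and 1279.9 ± 205 for Apoc1. By group mean, Apoe came first and Spp1 second in CD_WD, WD_CD and CD_CD. By library, Spp1 came first in CD_WD replicate 2, WD_CD replicates 1 and 3 and CD_CD replicate 2. Apoe came first in the remaining libraries of these groups. The SDs of Spp1 and Apoe overlap in every group, as do those of Trem2, Mmp12 and Apoc1 in every group but WD_WD, where Trem2 and Apoc1 are apart. Cd68 and then Gpnmb came next by mean in all 4 groups.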

How the data were processed

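Per the submitters' processing notes, the genome was GRCm38 (mm10) and the tools named are featureCounts 2.0.1, DESeq2, HISAT2 2.2.1, FastQC 0.12.1, SAMtools 1.13 and Trim Galore 0.6.10. How these tools were set, strand included, and how genes were filtered is not given in the sources used here. Per gene and library, a normalised signal was deposited, that is, counts divided by size factors. All 127860 values (100%) were whole multiples of 1 read to within 0.01 reads, where the smallest value of CD_CD replicate 3 had to stand for 3 reads. For both comparisons of the mother's diet the authors also deposited log2 fold changes with p-values, raw and adjusted.

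Here values were put on log2 after a pseudocount of 1, which understates changes of low genes, and fitted with limma 3.58.1 (trend, R 4.3.3) over all genes and 12 libraries with a mean per group, and Benjamini-Hochberg adjusted p under 0.05 was called. The code was tested on simulated data. edgeR 4.0.16 and DESeq2 1.42.0 were run on the recovered whole reads; edgeR called 1452 and DESeq2 2348 genes in CD_WD against CD_CD, where limma called 1599, and 2115 and 3090 in WD_WD against WD_CD, where limma called 2604. The members and the gene lists were chosen with earlier results of these data known. The genes named were the 7 members, a set list of partners whatever their values, up to 2 genes with the smallest p per other list and comparison, and the nearest profiles. No member was among the 18 symbols that read as dates or the 1 that is repeated. Promoters came from RefSeq (GRCm38.p6) and gene positions from GENCODE vM21. Outlying libraries were not tested for in groups of 3, and the other assays of the series were not analysed here. Some results are not reported here. Precision is limited by 3 libraries per group and, for the lowest values of Trem2 and Mmp12, by few reads.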

Additional observations from a re-analysis of the deposited data

How the results depend on the processing

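Of the alternatives, 185 of 218 values for the counts of genes stayed within 1.5 times the reported one, and the exceptions follow. A count of 0 that stayed at 0 was taken as unchanged. That was so for the members under every setting in both comparisons of the mother's diet and in the interaction. The 185 therefore say little about stability. Over all settings the members that passed numbered 0 to 3 in CD_WD against CD_CD and 0 to 6 in WD_WD against WD_CD. With a pseudocount of 0.1, 2 members passed in WD_WD against WD_CD. With reads scaled to the library total, 0 members passed there and 0 in CD_WD against CD_CD, while the calls over all genes became 4727 and 4394. edgeR called 2 members in each of these comparisons. DESeq2 gave Apoc1 no adjusted p, and over all genes it called 9 for the mother's diet in CD offspring, 14 in WD offspring and 10 for the interaction.

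Same-numbered libraries did not deviate together: 0 of 18 pairs had a correlation over 0.1 (range -0.23 to 0.07). Such correlations cannot show whether same-numbered libraries shared a batch, and the labels do not say. With the replicate block, 2 members passed in WD_WD against WD_CD, and 1 gene passed for the mother's diet in WD offspring. For this setting and the pseudocount of 0.1, the calls over all genes in WD_WD against WD_CD are not given here. The fall to 2 members can therefore not be told from a general loss of calls.

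Leaving out 1 library at a time, 1 to 6 members passed in WD_WD against WD_CD, with the fewest without WD_CD replicate 2, and 1593 to 3335 genes in all. In CD_WD against CD_CD 0 to 3 members passed, with the most without CD_WD replicate 1 and 0 without CD_CD replicate 1, CD_CD replicate 2, CD_WD replicate 2 or CD_WD replicate 3, and 698 to 1714 genes in all (698 without CD_CD replicate 1 and 705 without CD_CD replicate 2). For the mother's diet 0 to 3 genes passed in the CD offspring; in the WD offspring it was 0 to 10. Without both CD_WD replicate 1 and WD_CD replicate 3, 3 members passed in CD_WD against CD_CD, and 1 gene passed for the mother's diet in WD offspring.

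Direction turned for uncalled differences. Apoe in CD_WD against CD_CD was -0.92 with reads scaled to the library total, -0.80 without CD_CD replicate 2 and -1.57 without CD_WD replicate 3, within a range of -1.57 to 1.71 over libraries left out. In WD_CD against CD_CD, Spp1 was -0.17 without CD_CD replicate 3, the lowest of a range up to 3.85. Mmp12 there was -0.000615 with a pseudocount of 0.1, -0.79 without CD_CD replicate 3, -1.86 without WD_CD replicate 1 (the range over libraries left out reached 3.94), -0.68 without WD_CD replicate 3, and -0.68 without CD_WD replicate 1 and WD_CD replicate 3. The causes were not tested. Apoc1 in CD_WD against CD_CD passed in 16 of 21 alternatives, and in WD_WD against WD_CD Cd68 passed in 20 of 22, Apoc1 in 20 of 21, Trem2 in 12 of 22 and Spp1 in 10 of 22.

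Counts were low for Trem2 and Mmp12 in some CD libraries, down to 1 read. No setting with fewer than 2 libraries in a group was run.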
